A study of Homo sapiens with 16 samples.

Results

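The 33 genes described here serve the endoplasmic reticulum (ER), the compartment where a plasma cell makes and folds its antibody. They were chosen by name for their roles, with earlier results of these data known, and all 33 were found among the 28277 gene symbols of each expression table. By step, 9 act in translocation, 16 in folding, 6 in ER-associated degradation (ERAD) and 2 in export. A secreted protein is led to the ER by the signal recognition particle and its receptor, passes through the SEC61 channel, and loses its signal peptide. Chaperones and disulfide isomerases then fold it, proteins that cannot fold are moved back to the cytosol for destruction, and folded cargo leaves in COPII vesicles. When unfolded protein builds up, the sensors IRE1 (gene ERN1), ATF6 and PERK (gene EIF2AK3) raise many of these genes, and plasma cells are known for keeping this program high.

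The samples were 12 messenger RNA libraries of INA6 and JJN3, established human multiple myeloma lines labelled as plasma cells and untreated. In each line 3 libraries carried a CRISPR-dCas9-CRAB knockdown (named as the submitters spell it, a catalytically inactive Cas9 with a repressor) of KANSL2, a subunit of the NSL histone acetyltransferase complex, and 3 carried a non-targeting guide, here called the controls. INA6 is known to need interleukin 6 to grow, and JJN3 is not. The labels name neither the guide sequences nor whether each replicate was its own culture, and p-values therefore speak of variation among the libraries deposited, which could be technical. Expression is given as regularised log (rlog) values, a log2 scale, and each line was normalised by itself, so levels are not compared between lines or between genes. A change below is the mean of the knockdown libraries minus that of the controls of the same line, with n = 3 per arm, and a gene was called when its limma p-value, adjusted by Benjamini-Hochberg over all genes of the line with a mean of at least 3, was below 0.05.

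The target gene fell in each line, with the deeper change in JJN3. KANSL2 was at 8.06, 8.02 and 8.16 in the INA6 controls and at 7.71, 7.60 and 7.76 in the knockdown libraries, a change of −0.39 (SE 0.0625, limma adjusted p = 3.06e-05). The JJN3 libraries were at 7.25, 7.24 and 7.19 against 6.00, 5.98 and 6.06, a change of −1.21 (SE 0.0559, limma adjusted p = 1.48e-16). The first principal component separated the arms in both lines and held 78.7% of the variance in INA6 and 78.9% in JJN3. No library pair was identical. All 10 plasma cell markers on the list were measured at a mean of at least 3 in both lines. Of these 7 fell and 2 rose in INA6, where the summed rlog level of the list was 122.7 to 123.1 in the controls and 119.0 to 120.3 in the knockdown libraries. In JJN3 6 rose and 1 fell, with sums of 113.1 to 113.8 and 115.0 to 115.4. Of all genes with a mean of at least 3, 24.7% rose and 24.0% fell in INA6, and 25.5% rose and 25.5% fell in JJN3. XBP1 and MZB1 are plasma cell markers here and are also counted in lists further below. Among markers of other cells, 6 of 27 reached that mean in INA6, of which 0 were called, and 6 of 27 in JJN3, of which 2 rose and 3 fell (B cell markers 2 and 2, T and NK cell markers 0 and 1). Those of INA6 were the B cell markers PAX5, CD79B and BACH2, the T and NK cell markers CD3E and NKG7, and the myeloid marker CD14. Those of JJN3 were the B cell markers MS4A1, CD79A, CD79B and BACH2, with CD3E and CD14. MS4A1, FCGR3A, S100A8, S100A9 and LUM were listed at 0 in every INA6 library, and CD3D, CD3G, LYZ, FCGR3A, S100A9, DCN, LUM and PDGFRB in every JJN3 library. The part of these shifts in the results below was not tested.

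The genes of the ER protein folding program carry known promoter elements, which are shown here because the members that hold them are among those described below. The ER stress response element (ERSE) is CCAAT, 9 bases of any kind and CCACG, and ERSE-II is ATTGG, 1 base of any kind and CCACG. Both are known binding sites of ATF6 and XBP1 together with NF-Y. RefSeq promoter windows of GRCh38.p14, from 250 bases before to 50 bases after a gene's start, were matched for 28 of the 33 members; PDIA3, SRPRA, SPCS1, DERL1 and SEC24D were not matched. Both strands were searched. ERSE was in 6 of the 28 windows (21.4%) and in 22 of 27305 windows of all gene types (0.0806%). ERSE-II was in 3 of the 28 (10.7%) and in 15 of all windows (0.0549%). The shorter element UPRE (TGACGTGG) was in 2 of the 28 (7.14%), HYOU1 and SEC62, and in 217 of all windows (0.795%); in HYOU1 it overlapped an ERSE-II match. Below, each stretch is read 5′ to 3′ on the strand of its gene, and capitals mark the fixed letters of the element. Reversed, ERSE begins with CGTGG and ends with ATTGG.
HSPA5 (ERSE, chr9:125241391-125241409): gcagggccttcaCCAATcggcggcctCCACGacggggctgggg
HSP90B1 (ERSE, chr12:103930216-103930234): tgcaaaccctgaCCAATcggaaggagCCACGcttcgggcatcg
HSP90B1 (ERSE reversed, chr12:103930321-103930339): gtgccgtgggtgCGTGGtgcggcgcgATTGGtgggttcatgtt
CALR (ERSE reversed, chr19:12938384-12938402): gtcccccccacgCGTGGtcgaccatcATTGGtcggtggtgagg
CANX (ERSE, chr5:179698778-179698796): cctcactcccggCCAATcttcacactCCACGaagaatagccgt
CRELD2 (ERSE reversed, chr22:49918554-49918572): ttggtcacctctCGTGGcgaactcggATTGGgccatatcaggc
ERO1B (ERSE reversed, chr1:236282183-236282201): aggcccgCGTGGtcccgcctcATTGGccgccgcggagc
SDF2L1 (ERSE-II reversed, chr22:21642114-21642124): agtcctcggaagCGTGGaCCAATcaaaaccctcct
HERPUD1 (ERSE-II, chr16:56932025-56932035): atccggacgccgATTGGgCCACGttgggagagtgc
HYOU1 (ERSE-II reversed, chr11:119057274-119057284): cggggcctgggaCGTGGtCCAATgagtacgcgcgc
HYOU1 (ERSE-II reversed, chr11:119057380-119057390): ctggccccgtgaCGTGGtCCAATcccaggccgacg
The ERSE and ERSE-II matches lie between 66 bases (HSPA5) and 243 bases (ERO1B) before the start used for the window. Distances are counted from the element's first base on the gene's strand. The UPRE match of SEC62 lies 17 bases before the start. The window of CANX lies inside the annotated gene, at a later start. A match describes the letters only and shows no binding in these cells. The sources used here do not say whether reads were counted by strand. Another RefSeq gene overlaps 15 of the 33 members, among them ATP6V1C2 at PDIA6, RUVBL1 at SEC61A1, MRPL49 at SYVN1 and MIS12 at DERL2, and pseudogenes carry the names of 4 (HSPA5, PDIA3, SEC63 and SSR1), so reads of these pairs may have been mixed.

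KANSL2 knockdown moved the members differently in the lines. In JJN3, 19 of 32 tested members rose and 0 fell by limma, where 25.5% of all 12282 tested genes rose and 25.5% fell (51.0% in all). The median change of the members was 0.17, against 0.001 over all tested genes of that line, and 31 of 32 had a positive change. At an unadjusted p below 0.05, 23 were higher and 0 lower. In INA6, 8 of 33 members rose and 9 fell, where 24.7% of 12511 genes rose and 24.0% fell (48.6% in all), and the median change was −0.02 against 0.0009 over all tested genes. Standard errors of the members ran from 0.0388 to 0.0799 in INA6. Those in JJN3 ran from 0.037 to 0.0601. The values of knockdown and control libraries did not overlap for 24 of 32 members in JJN3 (56.1% of all genes) and for 16 of 33 in INA6 (55.2%), a share near or below that of all genes in INA6. After quantile normalisation 14 members rose and 2 fell in JJN3, and after a loess trend of change on mean rlog was taken out (below, the expression trend removed) 15 rose and 2 fell, the 2 being HSP90B1 and EDEM1. Over all 12282 tested genes of JJN3 these gave 2970 rises and 2887 falls (quantile normalisation) and 2940 and 2930 (trend removed). Under the same alternatives INA6 had 3 rises and 12 falls (quantile normalisation) and 3 rises and 13 falls (trend removed), and with median centring 9 rises and 6 falls. All 12511 tested genes of INA6 then had 3032 rises and 2824 falls, 3041 and 2870, and 3904 and 2400, in that order. Counts of rises in INA6 were 3 without knockdown replicate 2, 3 without control replicate 2, 4 without control replicate 1 and 4 without control replicate 3. Because these are bulk libraries, fewer cells of a kind and less RNA per cell cannot be told apart.

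**Figure D1:**
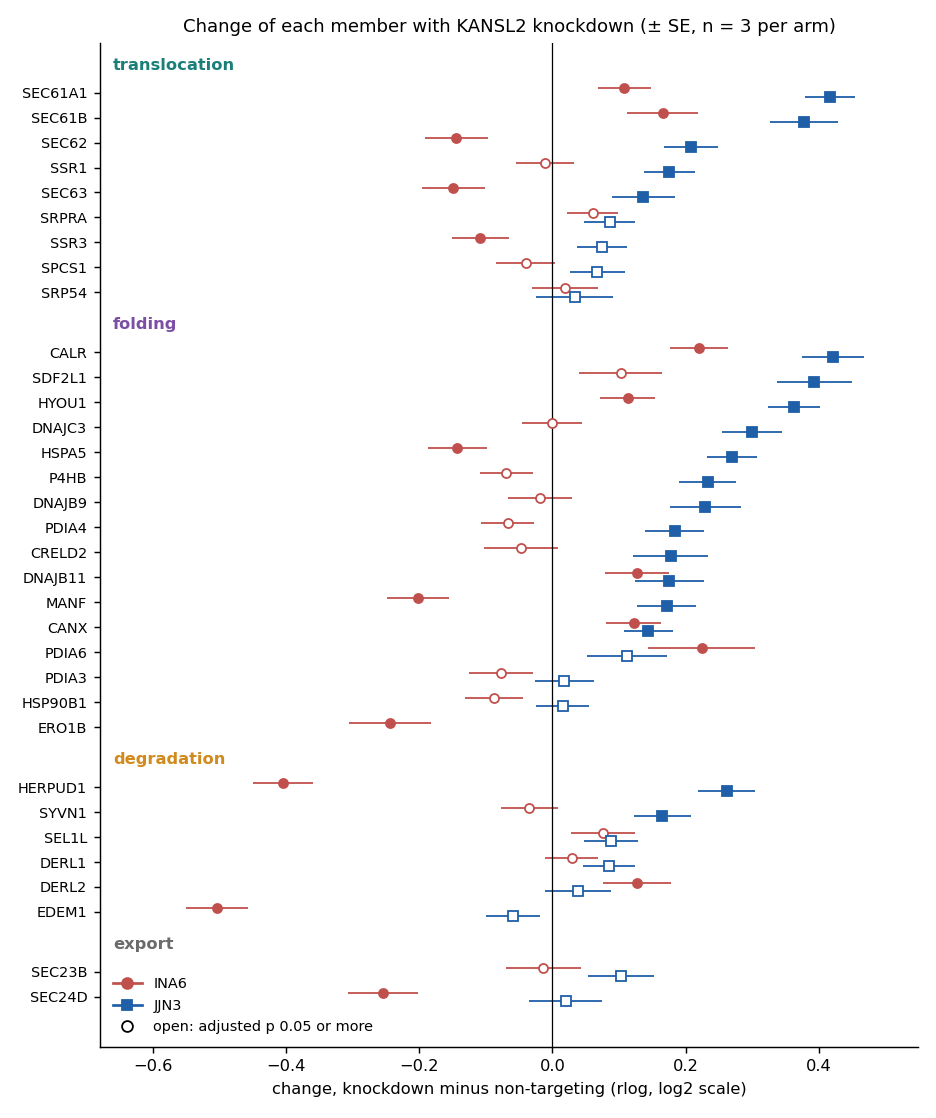
Change of each of the 33 members with KANSL2 knockdown (x axis, rlog on the log2 scale, points with SE, n = 3 per arm), ordered within each step by the change in JJN3; circles are INA6, squares JJN3, and open symbols have an adjusted p of 0.05 or more. In JJN3 the points lie between −0.06 and 0.42, in INA6 between −0.50 and 0.22, and ERO1B has no JJN3 point because it was not tested there.

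The lines differed in the change itself for 20 of 32 members, all 20 with the higher change in JJN3. Over the 11137 genes tested in both lines, 30.0% differed and 14.4% differed with the higher change in JJN3. At an unadjusted p below 0.05, 0 members had the higher change in INA6. The difference was computed as the change in JJN3 minus that in INA6, with a standard error from both fits. Its median was 0.21 over the members and −0.02 over all genes, and it was positive for 30 of 32 members, PDIA6 and DERL2 being the exceptions. Between lines the changes of the members correlated with Pearson's r = 0.386 over 32 genes (0.492 over all 11137 genes), a description across genes that are not independent. Of the 20 differences, 14 were called under all 19 alternatives. The other 6 (CALR, SDF2L1, CRELD2, SEC61B, SSR1 and SSR3) were lost under at least 1. Converted from the rlog changes, the knockdown left 76.4% of the control KANSL2 level in INA6 and 43.1% in JJN3. How far rlog shrank these changes in each line was not tested. The line and the depth of knockdown therefore cannot be told apart.

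**Figure D2:**
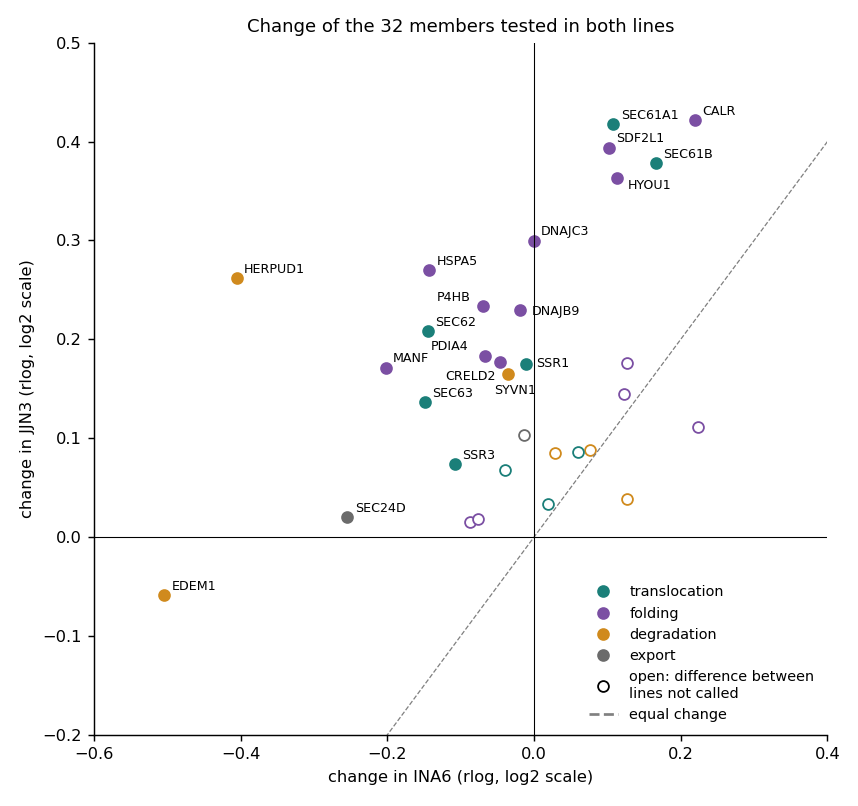
Change in JJN3 (y axis) against change in INA6 (x axis), both on the rlog log2 scale, for the 32 members tested in both lines, coloured by step; filled points differ between lines (adjusted p below 0.05) and the dashed line marks equal change. All 20 filled points lie above the dashed line, and HERPUD1, HSPA5, MANF, SEC62 and SEC63 lie at upper left with a call in each line.

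A set of 5 members fell in INA6 and rose in JJN3, namely HERPUD1, HSPA5, MANF, SEC62 and SEC63. That pair of calls was held by 2.39% of all genes tested in both lines. The reverse pair was held by 0 members and by 1.52% of all genes. A further 6 members rose in both lines (14.2% of all genes) and 0 fell in both (12.3%). HERPUD1, an ER membrane protein that helps the HRD1 ubiquitin ligase in degradation, showed the widest split. Its gene spans bases 56932142 to 56944864 of chromosome 16 (RefSeq, GRCh38.p14, as for the other positions). The INA6 libraries were at 11.86, 11.94 and 12.00 in the controls and at 11.59, 11.48 and 11.51 in the knockdown libraries. In JJN3 the controls were at 10.93, 10.94 and 10.82 and the knockdown libraries at 11.20, 11.16 and 11.12. All knockdown values were thus below the controls in INA6 and above them in JJN3, with changes of −0.41 (SE 0.0446, limma adjusted p = 2.88e-07) and 0.26 (SE 0.0424, limma adjusted p = 6.65e-06). The difference between the lines was 0.67 (SE 0.0615, adjusted p = 1.15e-12).

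HSPA5, which encodes BiP, the Hsp70 chaperone of the ER lumen and the partner that holds the stress sensors inactive, lies on chromosome 9 from 125234853 to 125241343. Its INA6 controls were at 14.77, 14.85 and 14.96 and the knockdown libraries at 14.74, 14.67 and 14.73. The JJN3 controls were at 13.60, 13.57 and 13.61 and the knockdown libraries at 13.85, 13.84 and 13.89. The arms did not overlap in either line, though in INA6 the lowest control lay only just above the highest knockdown library. The changes were −0.14 (limma adjusted p = 0.0113) and 0.27 (limma adjusted p = 4.9e-07), and they differed by 0.41 (SE 0.0579, adjusted p = 1.33e-07). The INA6 call was lost without control replicate 3 (adjusted p = 0.106, change −0.09) and without knockdown replicate 2 (adjusted p = 0.0644, change −0.12), over a range of 4.63e-06 to 0.106 across the alternatives.

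MANF, a small secreted protein that binds BiP and is held in the ER, lies on chromosome 3 from 51385291 to 51389397. It was at 9.64, 9.67 and 9.66 in the INA6 controls and at 9.48, 9.43 and 9.45 after knockdown, a change of −0.20 (limma adjusted p = 0.00124). In JJN3 it was at 9.49, 9.60 and 9.56 against 9.70, 9.70 and 9.77, a change of 0.17 (limma adjusted p = 0.00205). Neither line showed an overlap of the arms, and both calls held under every alternative run.

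SEC62 and SEC63 form the complex that assists the SEC61 channel with short secretory proteins and with BiP. SEC62 was at 12.08, 12.02 and 12.06 in the INA6 controls and at 12.02, 11.88 and 11.82 after knockdown, and in JJN3 at 10.22, 10.19 and 10.19 against 10.43, 10.43 and 10.37. The arms did not overlap in JJN3 but met in INA6, where knockdown replicate 1 lay among the controls. SEC63 was at 10.55, 10.48 and 10.49 in the INA6 controls and at 10.43, 10.37 and 10.28 after knockdown, and in JJN3 at 9.43, 9.35 and 9.38 against 9.61, 9.48 and 9.47. The arms of SEC63 were apart in both lines. The changes of SEC62 were −0.14 (limma adjusted p = 0.0147) and 0.21 (limma adjusted p = 0.000101). Those of SEC63 were −0.15 (limma adjusted p = 0.0137) and 0.14 (limma adjusted p = 0.0167). The lines differed by 0.35 for SEC62 (adjusted p = 1.38e-05) and 0.29 for SEC63 (adjusted p = 0.000824). In INA6 the SEC62 call was lost with median centring (−0.11) and without knockdown replicate 2 (−0.13), knockdown replicate 3 (−0.10) or control replicate 1 (−0.13), at adjusted p from 0.063 to 0.0725. The INA6 call of SEC63 was lost with median centring (−0.11) and without knockdown replicate 3 (−0.11) or control replicate 1 (−0.13). Its JJN3 call was lost without knockdown replicate 1 (0.09) or control replicate 2 (0.12) and with quantile normalisation (0.11) or the expression trend removed (0.10).

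**Figure D3:**
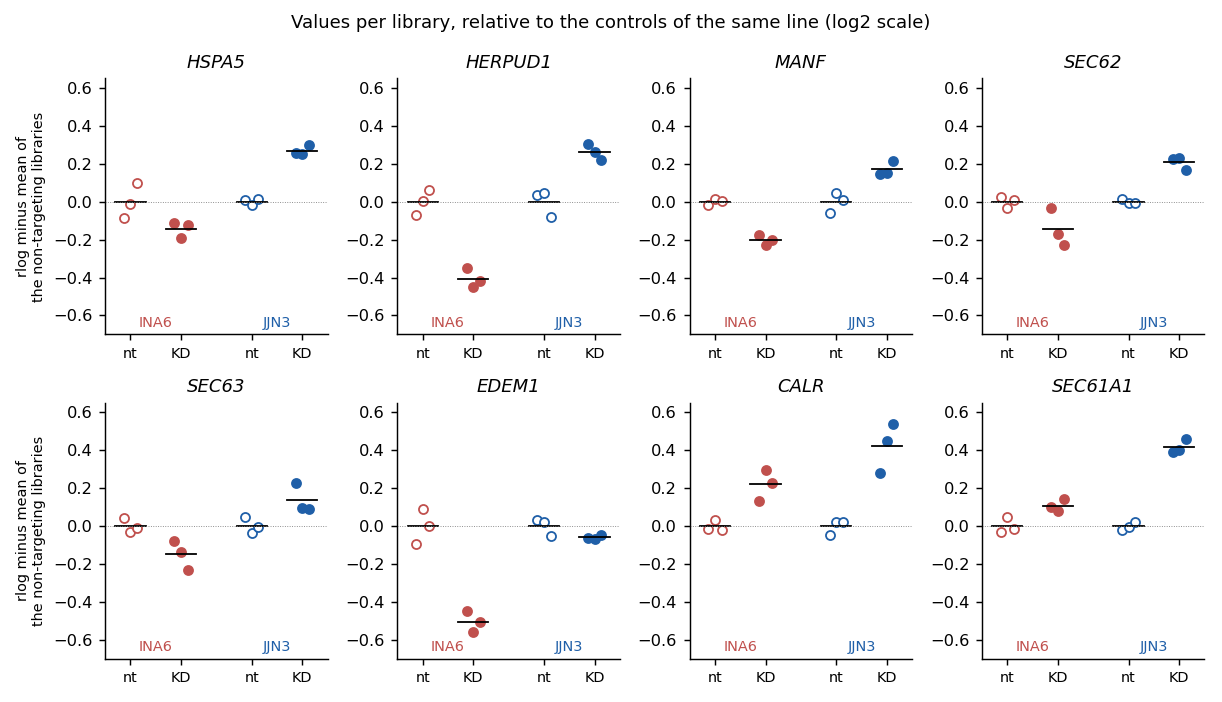
Values of 8 members in each library, as rlog minus the mean of the control libraries of the same line (y axis, log2 scale); open points are controls (nt), filled points knockdown libraries (KD), bars are means, and colours mark the line. HERPUD1, HSPA5, MANF, SEC62 and SEC63 lie below 0 after knockdown in INA6 and above 0 in JJN3, EDEM1 is low in INA6, and CALR and SEC61A1 are above 0 in both lines.

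Of the channel genes, SEC61A1 and SEC61B rose in both lines. The third subunit, SEC61G, was not called in either (−0.01 and 0.02), and SEC61A2, a second form of the pore gene, was at 0.01 in INA6 and rose by 0.14 in JJN3; both lie outside the 33 and were chosen after their values were seen. SEC61A1, the pore-forming subunit, was at 13.28, 13.36 and 13.29 in the INA6 controls and at 13.41, 13.39 and 13.45 after knockdown. The JJN3 values were 12.85, 12.86 and 12.89 against 13.25, 13.27 and 13.32. The knockdown values were above all controls in both lines, with a wide gap in JJN3 and a narrow one in INA6. SEC61A1 rose by 0.11 in INA6 (limma adjusted p = 0.0273) and by 0.42 in JJN3 (limma adjusted p = 2.56e-10), the member with the smallest p there. SEC61B, the small beta subunit, was at 9.11, 9.09 and 8.97 against 9.17, 9.24 and 9.27 in INA6 and at 8.03, 8.00 and 8.04 against 8.38, 8.37 and 8.44 in JJN3. It rose by 0.17 (limma adjusted p = 0.014) and 0.38 (limma adjusted p = 3.42e-07), with no overlap in either line. Between lines the difference was 0.31 for SEC61A1 (adjusted p = 1.24e-05) and 0.21 for SEC61B (adjusted p = 0.0236).

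The INA6 calls at the channel were less stable than those in JJN3, which held under every alternative. SEC61A1 lost its INA6 call when knockdown replicate 3 (0.09), control replicate 1 (0.09) or control replicate 3 (0.10) was left out, at adjusted p from 0.0737 to 0.11. It also lost it under quantile normalisation (0.07), with the expression trend removed (0.03), no variance trend (0.11, adjusted p = 0.0788) or the replicate block (0.11, adjusted p = 0.0758). SEC61B lost it without knockdown replicate 2 (0.16, adjusted p = 0.0508) or control replicate 3 (0.12, adjusted p = 0.102). The difference of SEC61B between lines was lost without 5 libraries in turn, JJN3 knockdown replicate 3, JJN3 control replicate 2, INA6 knockdown replicate 1 and INA6 control replicates 1 and 2, at 0.18 to 0.20 and adjusted p from 0.0536 to 0.0787.

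Of the other translocation members, the translocon-associated subunits SSR1 and SSR3 were split between the lines. SSR1 was at 12.41, 12.40 and 12.43 against 12.48, 12.41 and 12.32 in INA6, with overlapping arms and a change of −0.01 (adjusted p = 0.846 by limma). In JJN3 it was at 12.29, 12.24 and 12.28 against 12.47, 12.47 and 12.41, without overlap, and rose by 0.18 (limma adjusted p = 0.000322). SSR3 was at 13.39, 13.44 and 13.43 against 13.40, 13.29 and 13.24 in INA6, where it fell by 0.11 (limma adjusted p = 0.0408) with arms that overlap. That call was lost when any library but knockdown replicate 1 was left out (−0.12 to −0.07), with median centring (−0.07), and with no filter, no variance trend or the replicate block (−0.11 in each). In JJN3 SSR3 was at 12.32, 12.31 and 12.36 against 12.42, 12.39 and 12.40, without overlap, a change of 0.07 (adjusted p = 0.0996), called higher with median centring (0.10). The differences between lines, 0.19 for SSR1 and 0.18 for SSR3, were lost under quantile normalisation (0.10 and 0.11) and once the expression trend was removed (0.14 for both), as was the rise of SSR1 in JJN3 (0.06 under each). SRP54, which binds the signal peptide, SRPRA, the receptor's alpha subunit, and SPCS1, a signal peptidase subunit, were not called in either line, with changes from −0.04 to 0.06 in INA6 and from 0.03 to 0.09 in JJN3. SRPRA was called higher with median centring in INA6 (0.10) and JJN3 (0.11), and in JJN3 without knockdown replicate 1 (0.09).

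Folding, the largest step, had the most rises in JJN3, 12 of 15 tested members, where 25.5% of all genes rose. In INA6 5 of 16 rose and 3 fell, where 24.7% of all genes rose and 24.0% fell. The calcium-binding lectin chaperones CALR (calreticulin) and CANX (calnexin) rose in both lines. CALR was at 12.47, 12.51 and 12.46 in the INA6 controls and at 12.61, 12.78 and 12.71 after knockdown. In JJN3 it was at 12.77, 12.83 and 12.84 against 13.09, 13.26 and 13.35. All knockdown values were above all controls, and the changes were 0.22 (SE 0.0436, limma adjusted p = 0.000291) and 0.42 (SE 0.0465, limma adjusted p = 1.1e-08). CALR was the only one of the 8 INA6 rises that held under every alternative. The lines differed by 0.20 for CALR (adjusted p = 0.0126), which was lost in the absence of JJN3 knockdown replicate 3 (0.14, adjusted p = 0.0722) and with the expression trend removed (0.16, adjusted p = 0.0564).

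CANX changed by 0.12 in INA6 and 0.14 in JJN3, and the difference between the lines was 0.02 (SE 0.0553, adjusted p = 0.801). It was at 13.30, 13.25 and 13.30 against 13.46, 13.41 and 13.34 in INA6 and at 13.47, 13.48 and 13.51 against 13.64, 13.65 and 13.59 in JJN3, with no overlap. Its INA6 call (limma adjusted p = 0.0173) was lost without control replicate 2 (0.11), knockdown replicate 1 (0.09) or knockdown replicate 2 (0.12). The call in JJN3 (limma adjusted p = 0.00185) was lost with quantile normalisation (0.07) and the expression trend removed (0.02), which also ended the INA6 call (0.08 and 0.05), as did a fit with no variance trend (adjusted p = 0.057).

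HYOU1, a large Hsp70-related chaperone that exchanges the nucleotide of BiP, was at 12.88, 12.94 and 12.93 in the INA6 controls and at 13.03, 12.96 and 13.09 after knockdown. The JJN3 values were 12.31, 12.32 and 12.34 against 12.64, 12.69 and 12.75. The arms were far apart in JJN3 and close in INA6, with rises of 0.36 (limma adjusted p = 5.89e-09) and 0.11 (limma adjusted p = 0.0288). The INA6 call was lost when control replicate 1 (0.09), control replicate 2 (0.12) or knockdown replicate 3 (0.08) was left out, under quantile normalisation (0.04), with the expression trend removed (0.04), no variance trend (0.11) or the replicate block (0.11). Its difference between lines was 0.25 (SE 0.0568, adjusted p = 0.000534).

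The J-domain co-chaperones of BiP did not move alike in INA6. DNAJC3 was at 10.89, 10.94 and 11.00 against 10.96, 10.98 and 10.89 in INA6, where the arms overlap and the change was −0.0001 (SE 0.045). Its JJN3 values were 10.36, 10.32 and 10.19 against 10.62, 10.61 and 10.55 and rose by 0.30 (limma adjusted p = 2.08e-06) without overlap. DNAJB9, which returns BiP to the sensor IRE1, was at 10.35, 10.38 and 10.37 against 10.44, 10.32 and 10.29 in INA6, a change of −0.02. It rose by 0.23 in JJN3 (limma adjusted p = 0.000626), from 7.85, 7.90 and 7.85 to 8.02, 8.13 and 8.14. The lines differed by 0.30 for DNAJC3 (adjusted p = 0.000219) and 0.25 for DNAJB9 (adjusted p = 0.00601). DNAJB11 was at 9.98, 9.95 and 9.91 against 10.01, 10.14 and 10.06 in INA6 and at 9.11, 9.01 and 9.08 against 9.14, 9.35 and 9.24 in JJN3. Its arms did not overlap, and it rose in both lines, by 0.13 in INA6 (limma adjusted p = 0.0335) and 0.18 in JJN3 (limma adjusted p = 0.00517). It lost the INA6 call when knockdown replicate 2 (0.09), control replicate 2 (0.13) or control replicate 3 (0.11) was left out, and the JJN3 call without knockdown replicate 2 (0.12, adjusted p = 0.0853). Its INA6 call was also lost with no filter, no variance trend or the replicate block (0.13 in each), under quantile normalisation (0.07) and on removal of the expression trend (0.09). SDF2L1, a partner of DNAJB11, rose by 0.39 in JJN3 (limma adjusted p = 9.33e-07), from 10.35, 10.34 and 10.40 to 10.56, 10.77 and 10.93. In INA6 its arms overlapped, at 10.90, 10.90 and 10.77 against 10.77, 10.98 and 11.11, and the change of 0.10 was called only without knockdown replicate 1 (0.19, adjusted p = 0.00249). Its difference between lines, 0.29 (adjusted p = 0.00616), was 0.20 (adjusted p = 0.05) without JJN3 knockdown replicate 3, the highest library.

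The disulfide isomerases, which make and reshuffle the disulfide bonds of antibody chains, gave a mixed picture. P4HB rose in JJN3 by 0.23 (limma adjusted p = 3.58e-05), from 14.16, 14.17 and 14.20 to 14.31, 14.41 and 14.52. In INA6 it was at 14.41, 14.42 and 14.36 against 14.28, 14.31 and 14.39, a change of −0.07 (adjusted p = 0.156) with overlapping arms. That change was called lower without knockdown replicate 3 (−0.10), with quantile normalisation (−0.16) and on removal of the expression trend (−0.14). PDIA4 rose in JJN3 by 0.18 (limma adjusted p = 0.000885), from 11.37, 11.38 and 11.51 to 11.56, 11.56 and 11.68, and was at 12.72, 12.76 and 12.78 against 12.68, 12.64 and 12.73 in INA6, where the arms overlap and the change was −0.07 (adjusted p = 0.172), called lower with quantile normalisation (−0.11) and on removal of the expression trend (−0.14). That rise of PDIA4 was lost with quantile normalisation and the expression trend removed (0.08 under each). Between lines the difference was 0.30 for P4HB (adjusted p = 5.35e-05) and 0.25 for PDIA4 (adjusted p = 0.000892). PDIA6 was positive in both lines, with a rise of 0.22 in INA6 (SE 0.0799, limma adjusted p = 0.0247) and a change of 0.11 in JJN3 (adjusted p = 0.121), which was called without control replicate 3 (0.18) and with the expression trend removed (0.15). Its INA6 libraries were at 7.26, 7.18 and 7.29 against 7.27, 7.69 and 7.44, so the arms overlap and knockdown replicate 2 stands highest. Its difference between lines was −0.11 (SE 0.1, adjusted p = 0.421) and was not called. Without that library the change was 0.11 (adjusted p = 0.244), and the call was also lost without control replicate 1 (0.23, adjusted p = 0.0542) or control replicate 2 (0.19, adjusted p = 0.103). PDIA3, the isomerase that works with calnexin and calreticulin, was at −0.08 in INA6 and 0.02 in JJN3 and was not called.

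HSP90B1, the ER form of Hsp90, had 2 ERSE matches in its promoter window and was not called in either line. It was at 12.22, 12.19 and 12.28 against 12.21, 12.09 and 12.12 in INA6 and at 12.82, 12.87 and 12.85 against 12.94, 12.83 and 12.81 in JJN3, with overlap in both. Its changes were −0.09 (SE 0.0431, adjusted p = 0.0966) and 0.02 (SE 0.0399, adjusted p = 0.767). In JJN3 the change was −0.09 with quantile normalisation (adjusted p = 0.0331) and −0.10 with the expression trend removed (adjusted p = 0.0307), and in INA6 it was called lower under both (−0.13 and −0.16) and without knockdown replicate 1 (−0.12). CRELD2, a secreted ER stress protein, rose by 0.18 in JJN3 (limma adjusted p = 0.00874), from 7.22, 7.15 and 7.22 to 7.32, 7.39 and 7.41, without overlap. In INA6 it was at 8.29, 8.26 and 8.34 against 8.21, 8.23 and 8.30, with overlap and a change of −0.05. Its difference between lines, 0.22 (adjusted p = 0.0254), was lost without INA6 control replicate 3, INA6 knockdown replicate 2, JJN3 control replicate 2, JJN3 knockdown replicate 2 or JJN3 knockdown replicate 3 (0.20 to 0.22, adjusted p from 0.0553 to 0.0712). ERO1B, an oxidase that recharges the isomerases, fell in INA6 by 0.24 (limma adjusted p = 0.00237), from 5.99, 5.92 and 6.05 to 5.80, 5.71 and 5.72, with no overlap. In JJN3 it was at 0.52 to 0.56 in all 6 libraries, under the mean of 3 that the test required.

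Degradation held the deepest falls in INA6. EDEM1, which marks misfolded glycoproteins for destruction by trimming their mannose residues, lies on chromosome 3 from 5187707 to 5219958. It was at 12.14, 12.33 and 12.24 in the INA6 controls and at 11.79, 11.68 and 11.73 after knockdown, far below them. Its JJN3 values were 10.90, 10.89 and 10.82 against 10.81, 10.80 and 10.83, where the arms overlap. It fell by 0.50 in INA6 (SE 0.0472, limma adjusted p = 3.15e-08). On a linear scale converted from rlog, it fell by 29.5%. Its change in JJN3 was −0.06 (adjusted p = 0.228). That JJN3 change was called lower under quantile normalisation and on removal of the expression trend, and the difference between lines was 0.44 (adjusted p = 1.2e-07). EDEM3, a relative outside the 33, fell in INA6 as well (−0.51, limma adjusted p = 3.62e-08) and was at −0.03 in JJN3, where it was called lower under quantile normalisation and on removal of the expression trend (−0.12 in each).

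The ubiquitin ligase HRD1 (gene SYVN1) and its adaptor SEL1L, the core of the ERAD membrane complex, did not follow HERPUD1 and EDEM1 in INA6. SYVN1 was at 11.94, 11.94 and 11.92 against 11.88, 11.84 and 11.97 in INA6 (change −0.04, adjusted p = 0.518), called lower with the expression trend removed (−0.11). In JJN3 it rose by 0.17 (limma adjusted p = 0.0019), from 10.30, 10.35 and 10.21 to 10.47, 10.45 and 10.44 without overlap. The rise was lost on removal of the expression trend and under quantile normalisation (0.09 under each), and the lines differed by 0.20 (adjusted p = 0.00914). SEL1L was not called, at 0.08 in INA6 and 0.09 in JJN3, with a difference of 0.01 (SE 0.0631). It was called higher without knockdown replicate 3 in either line (0.12 in each) and in JJN3 with median centring (0.11). DERL1, a channel component, was at 11.75, 11.72 and 11.76 against 11.77, 11.79 and 11.76 in INA6 and at 11.32, 11.34 and 11.36 against 11.46, 11.43 and 11.39 in JJN3. Its arms overlap in INA6 only. The changes of 0.03 and 0.09 were not called, though in JJN3 DERL1 was called higher without knockdown replicate 3 (0.10) and with median centring (0.11). DERL2 rose by 0.13 in INA6 (limma adjusted p = 0.0449), from 9.23, 9.25 and 9.20 to 9.33, 9.43 and 9.30. In JJN3 DERL2 was at 8.58, 8.59 and 8.50 against 8.62, 8.56 and 8.61, with overlap and a change of 0.04. Its INA6 call was lost without any 1 control (0.11 to 0.14) and without knockdown replicate 2 (0.09, adjusted p = 0.247). It was also lost with no filter, no variance trend or the replicate block (0.13 in each) and under quantile normalisation or trend removal (0.11 in each).

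The 2 export members are subunits of the COPII coat. SEC24D, a cargo adaptor, fell in INA6 by 0.25 (SE 0.0522, limma adjusted p = 0.000398), from 9.30, 9.26 and 9.28 to 9.11, 8.97 and 8.99, with no overlap. The JJN3 libraries were at 8.21, 8.29 and 8.08 against 8.26, 8.18 and 8.19, which overlap, and the change was 0.02 (adjusted p = 0.786). The lines differed by 0.27 (adjusted p = 0.00434). SEC23B, which stimulates GTP hydrolysis by SAR1, was at 8.54, 8.42 and 8.48 against 8.47, 8.40 and 8.53 in INA6. It was at 8.35, 8.36 and 8.32 against 8.42, 8.45 and 8.47 in JJN3. The arms overlap in INA6 only, and the changes were −0.01 and 0.10 (adjusted p = 0.858 and 0.0809), the latter called with median centring (0.13).

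**Figure D4:**
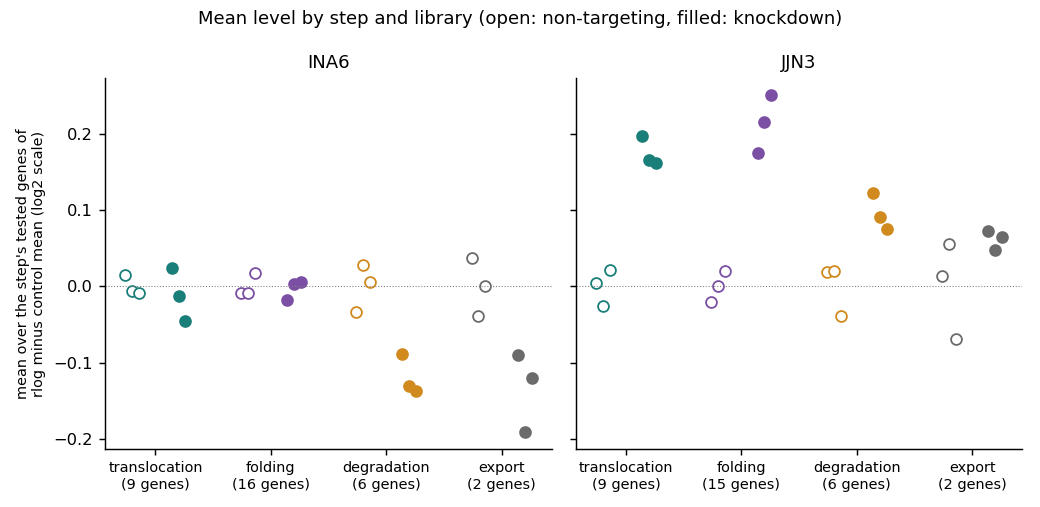
Mean over the tested members of each step of rlog minus the control mean (y axis, log2 scale), 1 point per library; open points are controls and filled points knockdown libraries. In JJN3 the 3 knockdown libraries lie above the controls for translocation, folding and degradation, and in INA6 they lie below the controls for degradation and export, while for folding knockdown replicate 1 lies below all controls and the other 2 among them. The median change of the degradation members in INA6 was −0.003.

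Summed by step, the members of folding had a mean of 0.18, 0.22 and 0.25 above the control mean in the 3 JJN3 knockdown libraries, where the controls were at −0.02, 0.0002 and 0.02. Translocation was at 0.20, 0.17 and 0.16 in those libraries. Degradation was at 0.12, 0.09 and 0.08. In INA6 degradation was at −0.09, −0.13 and −0.14. EDEM1 and HERPUD1 were its 2 members called lower, DERL2 was called higher, and the median change of the step was −0.003. Folding was at −0.02, 0.003 and 0.01 in the INA6 knockdown libraries. Export, with 2 members, was at −0.09, −0.19 and −0.12 in the same libraries, and translocation at 0.02, −0.01 and −0.04. The median SD over the members was 0.0595 in the knockdown libraries and 0.0374 in the controls of INA6, and 0.0392 and 0.0386 in JJN3, differences that were not tested.

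Members with an ERSE or ERSE-II match rose in 7 of 8 cases in JJN3, with a median change of 0.27, and the members without one in 12 of 24, with a median of 0.12. In INA6 those with a match rose in 3 and fell in 3 of 9 (median −0.05), and those without rose in 5 and fell in 6 of 24 (median −0.02). The 5 members with no promoter window are counted among those without a match. Over all tested genes, 25.5% rose and 25.5% fell in JJN3, and 24.7% rose and 24.0% fell in INA6. The same elements occurred in 28 windows of genes outside the 33, of which 15 were tested in JJN3, with 4 rises and 3 falls and a median of 0.02. In INA6 17 of them were tested, with 4 rises and 4 falls (median −0.04). These are descriptions of lists with no test, and the 33 members include genes known for such elements.

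Genes that work beside the members were read from lists of the same steps. Of all tested genes 25.5% rose and 25.5% fell in JJN3, and 24.7% rose and 24.0% fell in INA6. Of 16 other translocation genes, 8 rose in JJN3 and 5 in INA6, and 0 fell in either line by limma, with 0 lower at an unadjusted p below 0.05. Quantile normalisation and removal of the expression trend each called 3 lower in INA6 and 2 in JJN3, and without INA6 knockdown replicate 1 the count was 4 in that line. TRAM2, a translocation chain-associated protein, rose by 0.42 in JJN3 (limma adjusted p = 1.68e-10) and 0.18 in INA6, where quantile normalisation ended the call (0.09). SRPRB, the membrane anchor of the SRP receptor, rose by 0.32 and 0.17, the latter lost with quantile normalisation (0.09). SSR4 rose by 0.21 in INA6 and by 0.13 in JJN3, the latter lost under 6 alternatives and at 0.08 without control replicate 1. The signal peptidase subunit SEC11C rose by 0.34 in JJN3 and by 0.17 in INA6, the latter lost when knockdown replicate 1 or 2 or control replicate 1 or 3 was left out (0.16 to 0.17). Of 8 tested genes of the oligosaccharyltransferase, which puts glycans on new chains, 5 rose and 1 fell in JJN3 and 1 rose and 1 fell in INA6. Its catalytic subunit STT3B rose by 0.17 in JJN3, a call lost with quantile normalisation (0.07) and the expression trend removed (0.06). In INA6 it fell by 0.13, which was lost with median centring (−0.10) and without knockdown replicate 2 (−0.12). The other catalytic subunit, STT3A, rose by 0.19 in JJN3 and by 0.14 in INA6, the latter lost under 7 alternatives, among them leaving out knockdown replicate 2 (0.10), control replicate 1 (0.13) or control replicate 2 (0.12).

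Of 22 other tested folding genes, 6 rose and 4 fell in JJN3 and 4 rose and 10 fell in INA6. Here too the shares over all tested genes were 25.5% higher and 25.5% lower in JJN3, and 24.7% and 24.0% in INA6. TXNDC11, a thioredoxin-domain protein linked to glycoprotein degradation, fell by 0.47 in INA6 (limma adjusted p = 3.89e-08) and rose by 0.41 in JJN3 (limma adjusted p = 5.27e-09), a difference of 0.87. MZB1, a plasma cell co-chaperone of antibody assembly, fell by 0.44 in INA6 and was at −0.01 in JJN3. TXNDC5, an isomerase, fell in both lines, by 0.47 in JJN3 and 0.68 in INA6. Knockdown replicate 2 was the lowest library in both, and without it the JJN3 change was −0.29, still called. QSOX1, a sulfhydryl oxidase, fell by 0.31 in INA6 and was at 0.11 in JJN3, a change called higher in 4 alternatives (0.11 to 0.16). Of 21 other tested degradation genes, 11 rose and 3 fell in JJN3 and 7 rose and 6 fell in INA6. VCP, the ATPase that pulls substrates out of the membrane, rose in both lines, by 0.45 in JJN3 (limma adjusted p = 2.89e-10) and 0.32 in INA6 (limma adjusted p = 1.86e-06). HM13, the signal peptide peptidase, and RNF139, a ubiquitin ligase, rose by 0.38 and 0.33 in JJN3. In INA6 RNF139 was at 0.001, and HM13 rose by 0.16, a call lost under 7 alternatives and at 0.09 without control replicate 3. Of 21 other export genes, 9 rose and 4 fell in JJN3 and 1 rose and 5 fell in INA6. The cargo receptor subunit MCFD2 fell by 0.39 in JJN3 and by 0.15 in INA6, the latter lost under 5 alternatives. The scaffold SEC16A rose by 0.28 in JJN3 and by 0.16 in INA6, the latter lost under 3 alternatives, and KDELR3, which returns escaped chaperones to the ER, fell by 0.24 in INA6 and 0.27 in JJN3. The count of falls in INA6 lay between 2 (without control replicate 2 or control replicate 3) and 11 (quantile normalisation).

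The stress sensors and the factors they act through were counted next. Of 11 tested genes, 8 rose and 1 fell in JJN3 (median 0.16), and 1 rose and 4 fell in INA6, where the median was 0.06. Among all tested genes 25.5% rose and 25.5% fell in JJN3, and 24.7% rose and 24.0% fell in INA6. PPP1R15A, the regulatory subunit of the phosphatase that ends the PERK branch, rose by 0.47 in JJN3 (limma adjusted p = 1.55e-08), as did its relative PPP1R15B (0.28) and the factor DDIT3, known as CHOP (0.32). In INA6 these were at 0.10, 0.06 and 0.10 and were not called, though PPP1R15A was called higher with median centring (0.13) and without knockdown replicate 2 (0.15), and DDIT3 under quantile normalisation (0.14). The membrane-bound factor CREB3L2 fell by 0.44 in INA6 (limma adjusted p = 4.18e-07) and rose by 0.17 in JJN3 (limma adjusted p = 0.00142), a difference of 0.62. XBP1, the factor made by IRE1 splicing, fell by 0.12 in INA6 (limma adjusted p = 0.0201) and was at 0.02 in JJN3; it lies outside the rule for named genes and was chosen after its values were seen. ATF6 fell in both lines, by 0.24 in each (difference 0.005, SE 0.0638). MBTPS2, a protease that releases ATF6, fell by 0.26 in INA6 and was at −0.007 in JJN3. MBTPS1, on the same list, rose by 0.15 in both lines (limma adjusted p = 0.0138 in INA6 and 0.00699 in JJN3). The sensors ERN1 and EIF2AK3 and the factor ATF4 rose in JJN3, by 0.20, 0.16 and 0.13. In INA6 they were at 0.07, 0.10 and 0.05 and were not called. Like XBP1, MBTPS1, ERN1, EIF2AK3 and ATF4 lie outside the rule for named genes and were chosen after their values were seen. A list of chaperones outside the ER held cytosolic ones and the mitochondrial HSPD1 and HSPE1. Of 14 tested, 10 rose in INA6 and 0 fell by limma (1 was lower at an unadjusted p below 0.05, and 1 was called lower without knockdown replicate 1), and of 13 tested in JJN3 9 rose and 1 fell. Without the mitochondrial pair, which rose in both lines, 8 of 12 rose in INA6 and 7 of 11 in JJN3. HSPH1 rose by 0.79 and HSPA8 by 0.59 in INA6 (0.37 and 0.38 in JJN3), DNAJA1 by 0.60 in INA6 and 0.49 in JJN3, and HSP90AA1 by 0.48 in INA6 and 0.40 in JJN3. In 5 of the 13 tested in both lines the change differed, all 5 with the higher change in INA6 (4 of 11 without the mitochondrial pair). Over all 11137 genes tested in both lines 30.0% differed, and 1733 differed with the higher change in INA6.

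**Figure D5:**
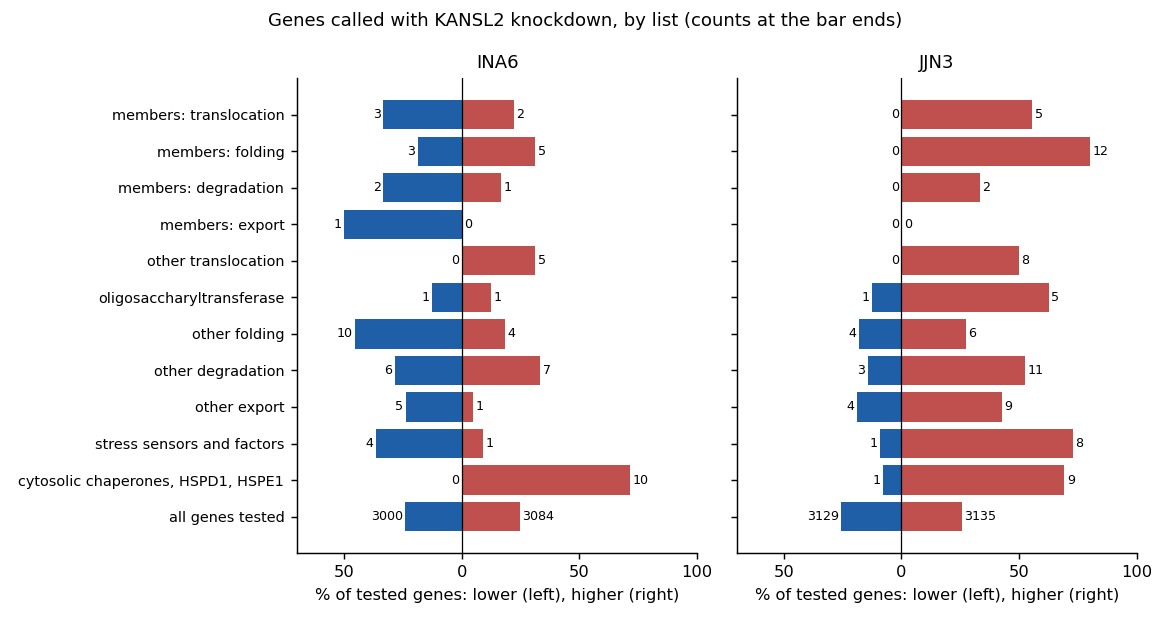
Share of tested genes that were lower (blue, left) or higher (red, right) with KANSL2 knockdown in each list (x axis, percent; adjusted p below 0.05), with the counts at the bar ends, in INA6 and JJN3. The bar of all genes tested is nearly even in both lines, the folding members reach 12 of 15 higher in JJN3, and of the chaperones outside the ER 10 of 14 are higher in INA6 and 9 of 13 in JJN3.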

How the data were processed

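Messenger RNA of 12 libraries, 3 per line and arm, was measured; the chromatin accessibility (ATAC-seq) libraries of the study were not analysed here. The deposited values are rlog expression on the log2 scale, 1 table per line, which the authors normalised separately, per the file headers and values. The submitters' processing notes name Trim Galore, Bowtie2, HTSeq, DESeq2 and the build hg38, without roles or versions. No counts were used, so the depth of each library is unknown, and rlog shrinks the changes of low genes.

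Samples were grouped by their labels. Each line was fitted on its own with limma 3.58.1 in R 4.3.3, without a block and with a trend of variance on expression, over genes with a mean rlog of at least 3. P-values were adjusted by Benjamini-Hochberg over all genes tested, with a threshold of 0.05. The lines were compared by the difference of their changes over the root of the summed squared standard errors, adjusted over 11137 genes. The fit was also run on simulated data with independent noise and few changed genes. In the real data 48.6% of genes were called in INA6 and 51.0% in JJN3, so that run does not vouch for these calls. Same-numbered knockdown and control libraries did not deviate together (r from −0.30 to −0.07 for INA6, from −0.01 to 0.005 for JJN3), so numbers were not taken as pairs.

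The members and all gene lists were chosen with earlier results of these data known. Values per library are given for members called in both lines, differing between lines or among the 3 smallest p of their step, plus HSP90B1 and PDIA6, chosen after their values were seen. Up to 3 genes of each list per line are named by smallest p. Alternatives were another minimum (5 or none), median centring, quantile normalisation, removal of the loess trend of change on expression, no variance trend, the replicate block, and leaving out each library.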

Additional observations from a re-analysis of the deposited data

Results flagged for a closer look

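For 20 of the 32 members tested in both lines the change in JJN3 minus that in INA6 passed the test of the difference itself, with the values 0.41 for HSPA5, 0.30 for P4HB, 0.25 for PDIA4, 0.20 for CALR, 0.25 for DNAJB9, 0.30 for DNAJC3 and 0.29 for SDF2L1. It was 0.67 for HERPUD1, 0.44 for EDEM1, 0.20 for SYVN1, 0.37 for MANF, 0.22 for CRELD2, 0.25 for HYOU1, 0.31 for SEC61A1 and 0.21 for SEC61B. It was 0.35 for SEC62, 0.29 for SEC63, 0.19 for SSR1, 0.18 for SSR3 and 0.27 for SEC24D. The target KANSL2 also differed, by −0.82.

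Among the named genes of the other lists the difference passed the same test for TRAM2 (0.24), STT3B (0.30), TXNDC11 (0.87), ERP29 (0.18), MZB1 (0.42), QSOX1 (0.41), EDEM3 (0.49), RNF139 (0.33) and HM13 (0.22). In export genes it passed for SEC13 (0.23), MCFD2 (−0.24) and SURF4 (0.19). In the stress list it passed for DDIT3 (0.22), CREB3L2 (0.62), MBTPS2 (0.25), PPP1R15A (0.38) and PPP1R15B (0.22). The change was higher in INA6 for the cytosolic chaperones HSPA8 (−0.21) and HSPH1 (−0.42).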

How the results depend on the processing

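The count of members that rose in INA6, 8, was 3 under quantile normalisation, once the expression trend was removed and with no variance trend, 4 with the replicate block, and 3 to 8 when 1 library was left out. Of these 8 calls 1 held under all alternatives, as did 5 of the 9 falls in INA6 and 13 of the 19 rises in JJN3. The falls in INA6, 9, were 13 after removal of the expression trend, 12 under quantile normalisation, 6 with median centring and 6 to 10 without 1 library. Falls over all tested INA6 genes, 3000 in the main fit, were 2870 with the trend removed, 2824 under quantile normalisation and 2400 with median centring. The replicate block gave 19 rises in JJN3 and 20 members that differ between lines, as without it. The count of falls in JJN3, 0, was 2 under quantile normalisation and once the expression trend was removed, and 0 whichever library was left out. The members that differ between lines, 20, were 16 to 20 without 1 library.

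The median change of the members in INA6, −0.02, was −0.068 after removal of the expression trend, −0.062 under quantile normalisation, 0.019 with median centring, and −0.036 to −0.017 without 1 library. In JJN3 the median, 0.17, was 0.11 after either of these, 0.20 with median centring, and 0.15 to 0.18 without 1 library. By step, the INA6 medians were −0.003 for degradation, −0.033 for folding and −0.011 for translocation. With median centring they were 0.034, 0.0043 and 0.026, so each changed sign. Without 1 library degradation lay between −0.019 (knockdown replicate 3) and 0.0077 (knockdown replicate 2) and translocation between −0.040 (knockdown replicate 1) and 0.031 (knockdown replicate 3). HSP90B1 in JJN3 was −0.10 after removal of the expression trend and −0.089 under quantile normalisation. Median centring took the share of higher among all called genes from 50.7% to 61.9% in INA6 and from 50.05% to 59.4% in JJN3. The cause of these shifts was not tested. Depth is unknown, so its limit on low genes could not be stated.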
